A study of Saccharomyces cerevisiae with 16 samples.

Results

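The phosphate genes of budding yeast were followed in phosphate-limited cultures after induction of ROF1, a gene for a presumed transcription factor with a WOPR DNA-binding domain. The set holds 32 genes of 6225 on the array, listed by their roles in phosphate sensing, acid phosphatase activity, phosphate transport, polyphosphate metabolism and use of glycerophosphodiesters, and matched by systematic name. The rule has no threshold on a measured value, but the list was drawn up with earlier results of these data known. The tested samples came from a strain of S288C background in which ROF1 is driven by the Z3 promoter, marked with URA3, and in which the Z3EV activator is expressed from the ACT1 promoter, becoming active when β-estradiol binds it. Per the study's methods, the ROF1 strain used for its crosses carries the activator beside a repaired HAP1 gene with a natMX marker, and ura3Δ0, can1Δ::STE2pr-SpHis5, his3Δ1 and lyp1Δ. The labels of the array samples give the background alone. Duplicate chemostat cultures, A and B, were sampled at 0, 5, 10, 15, 20, 30, 45 and 90 min after 1 µM β-estradiol, with 1 two-colour array for each culture and time. Each array carried the culture's RNA in red (Cy5) and RNA of the reference strain DBY12001, also of S288C background, in green (Cy3). No strain lacking the ROF1 construct was followed, so effects of ROF1, of the activator and of the inducer on a phosphate gene cannot be told apart.

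Budding yeast senses phosphate through the PHO pathway. When phosphate is ample the cyclin-dependent kinase Pho85 with its cyclin Pho80 phosphorylates the activator Pho4 and keeps it out of the nucleus. When phosphate is scarce the inhibitor Pho81 holds the kinase back, and Pho4, together with Pho2, turns on genes for secreted phosphatases, high-affinity uptake and the making of polyphosphate, the store of phosphate in the vacuole. A culture limited for phosphate therefore keeps this pathway switched on, and the cells rely on it for growth.

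All 32 genes gave signals well above background in both colours on all 16 arrays, and all were among the 6046 genes tested. Median red signal per array ranged from 929 to 1416, the lowest on the array of 10 min, culture B. The log2 ratio of ROF1 to the reference was higher by 4.01 at 90 min than at 0 min. Its red signal at 0 min (11.5 and 17.0) lay under the floor of 50 that is set before the log. So did its green signal at 0 min (17.4 and 19.5) and at 90 min (44.1 and 35.6). The size of this change is thus set in part by the floor. The log2 ratios to the reference at 0 min were -5.09 for CAN1 and -6.03 for LYP1, and -6.82 or lower for HIS3, whose red signal was also under the floor. On both slides the first row of arrays held 0 to 15 min and the second row 20 to 90 min, so position on the slide and early or late time cannot be told apart. A value below is either the log2 ratio of red over green on 1 array, called the ratio, or a change, which is the ratio at a later time minus that at 0 min, averaged over both cultures. Changes were tested with limma over all genes, with p adjusted by Benjamini-Hochberg. Changes of 2-fold or more (1 on the log2 scale) at an adjusted p under 0.05 are called 2-fold changes, and the numbers past the adjusted p alone are given beside them.

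The main change was in the acid phosphatases. At 90 min the ratios of PHO12, PHO11 and PHO3 were lower by 2-fold or more than at 0 min, and that of PHO5 was lower by 1.75-fold, whereas the genes for the high-affinity transporter Pho84 and for the sensing proteins moved little. In the red signal of the strain alone, the log2 changes were -1.75 for PHO12, -0.95 for PHO3, -0.53 for PHO11 and -0.38 for PHO5, of which that of PHO5 did not pass the test (adjusted p 0.0650 by limma). By the adjusted p alone, 9 of the 32 genes were lower and 9 were higher at 90 min. Over all genes tested these shares were 20% lower and 20.7% higher, so the number of phosphate genes past the threshold was near the background in both directions. For 2-fold changes, 3 of 32 genes were lower against a background of 0.992%, and 0 were higher against a background of 0.38%. On the red channel alone limma also gave 0 higher by 2-fold, with no background counted for that channel at 2-fold. By the adjusted p alone the red channel gave 4 of the 32 genes lower (PHO12, PHO11, PHO3 and PHM7) and 0 higher at 90 min, against 2.91% and 3.75% of all genes. The median change of the 32 genes at 90 min was 0.00, as it was over all genes, and the median size of the change was 0.17, against 0.11 over all genes. The phosphate genes thus had no common shift, and the larger changes lay in a few of them.

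**Figure D1:**
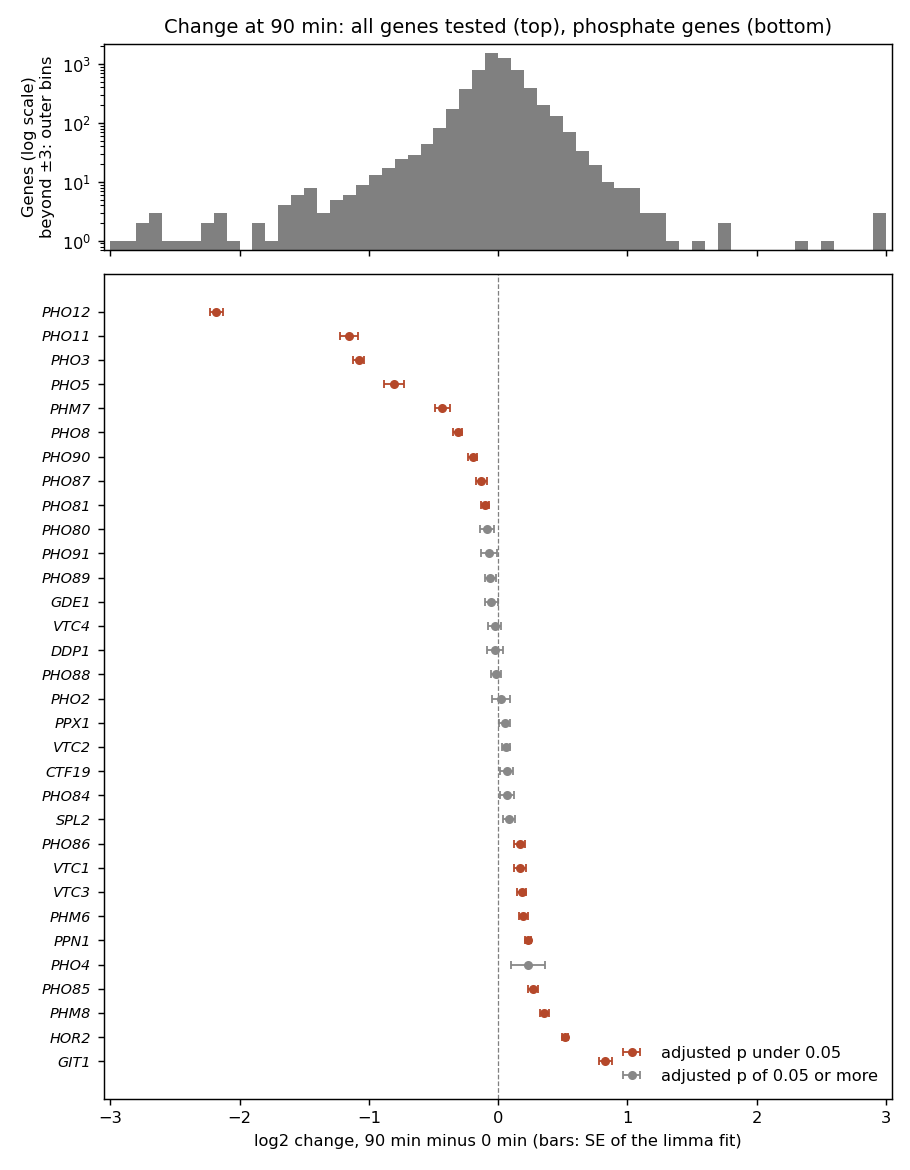
Change in the log2 ratio at 90 min (90 min minus 0 min). The upper panel counts all 6046 genes tested in bins of the change, on a log scale, with values beyond the axis put in the outer bins. The lower panel shows each of the 32 phosphate genes as the mean of both cultures with the SE of the limma fit, in red where the adjusted p was under 0.05 and in grey otherwise. PHO12 (-2.18), PHO11 (-1.16), PHO3 (-1.08) and PHO5 (-0.81) stand apart on the low side and GIT1 (0.83) is the highest.

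PHO12, which encodes a secreted acid phosphatase repressed by phosphate, changed most of the 32 genes. In culture A its ratio was 0.55, 0.62, 0.61, 0.43, 0.11, -0.36, -0.84 and -1.57 at 0, 5, 10, 15, 20, 30, 45 and 90 min. Culture B gave 0.59, 0.58, 0.50, 0.35, 0.03, -0.60, -0.92 and -1.64 at the same times. Up to 10 min both cultures stayed near their starting values, from 15 min on every array was below both arrays of 0 min, and the lowest arrays were those of 90 min. The change first passed the threshold at 15 min (-0.18, SE 0.05, adjusted p 0.0465 by limma) and was -0.51, -1.05 and -1.45 at 20, 30 and 45 min. By 90 min it was -2.18 (SE 0.05), which is 4.53-fold lower (adjusted p 4.47e-08 by limma). By linear interpolation the midpoint of the fall came at 34.7 min (culture A) and 28.8 min (culture B). PHO12 was the only one of the 32 genes lower by 2-fold at 30 and 45 min, where the background was 0.265% and 0.496%. At 30 min its change was -0.91 and -1.19 in cultures A and B, and without the culture B array of 0 or of 30 min 0 genes were lower by 2-fold.

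PHO11, the close paralog of PHO12 and likewise a repressible secreted acid phosphatase gene, changed later. Its ratio in culture A was 0.84, 0.80, 0.92, 0.79, 0.88, 0.58, 0.24 and -0.31 over the 8 times. Culture B gave 0.84, 0.85, 0.85, 0.82, 0.80, 0.30, 0.15 and -0.31. Through 20 min the arrays stayed within 0.79 to 0.92, and at 30, 45 and 90 min every array was below both arrays of 0 min. At 30 and 45 min the change was -0.40 and -0.65, and by 90 min it was -1.16 (SE 0.07, adjusted p 9.46e-06 by limma), 2.23-fold lower than at the start. The midpoints were 43.7 min (culture A) and 33.4 min (culture B), a wider gap between the cultures than for PHO12. PHO11 and PHO12 are near-identical in sequence, so a probe may read RNA of both genes and the separate sizes of their changes are uncertain. The change of PHO12 minus that of PHO11 at 90 min was -0.97 and -1.08 (cultures A and B).

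PHO3 encodes an acid phosphatase that is made without phosphate limitation and lies next to PHO5 on chromosome II. Its ratio in culture A was -0.14, -0.33, -0.36, -0.25, -0.38, -0.57, -0.70 and -1.21 over the 8 times. The values of culture B were -0.16, -0.28, -0.22, -0.27, -0.40, -0.47, -0.66 and -1.24. All later arrays were below both arrays of 0 min, and the fall began earlier than for its neighbour: the change was already -0.16 at 5 min (adjusted p 0.0375 by limma). At 20 and 45 min it was -0.24 and -0.53, and by 90 min it was -1.08 (SE 0.04, adjusted p 7.80e-07 by limma), 2.11-fold lower. At 15 min its change did not pass the threshold. With normexp background correction and loess its change at 90 min was -0.88, short of 2-fold.

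PHO5 encodes the main repressible secreted acid phosphatase and was chosen for fuller description after its values were seen. Its ratio in culture A was 0.73, 0.82, 0.91, 0.88, 0.79, 0.47, 0.35 and 0.00 over the 8 times. The values of culture B were 0.78, 0.81, 0.92, 0.97, 0.54, 0.41, 0.42 and -0.10. The ratio was at or above its starting value through 15 min in both cultures and below it in both at 30, 45 and 90 min. At 30 and 45 min the change was -0.32 and -0.37, and by 90 min it was -0.81 (SE 0.07, adjusted p 8.67e-05 by limma). Its midpoint came at 43.1 min (culture A) and 52.0 min (culture B), after that of PHO12 in both. PHO3 and PHO5 are also close in sequence, so the size of each change carries the same reservation about shared probe signal. The red signal of PHO3 was 201 to 604 over the 16 arrays, against 95102 to 190627 for PHO5. The part of PHO5 RNA in the PHO3 signal was not tested. At 90 min the ratios of PHO5 were near 0, that is, equal signal in both colours, whereas those of PHO12, PHO11 and PHO3 were below 0.

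**Figure D2:**
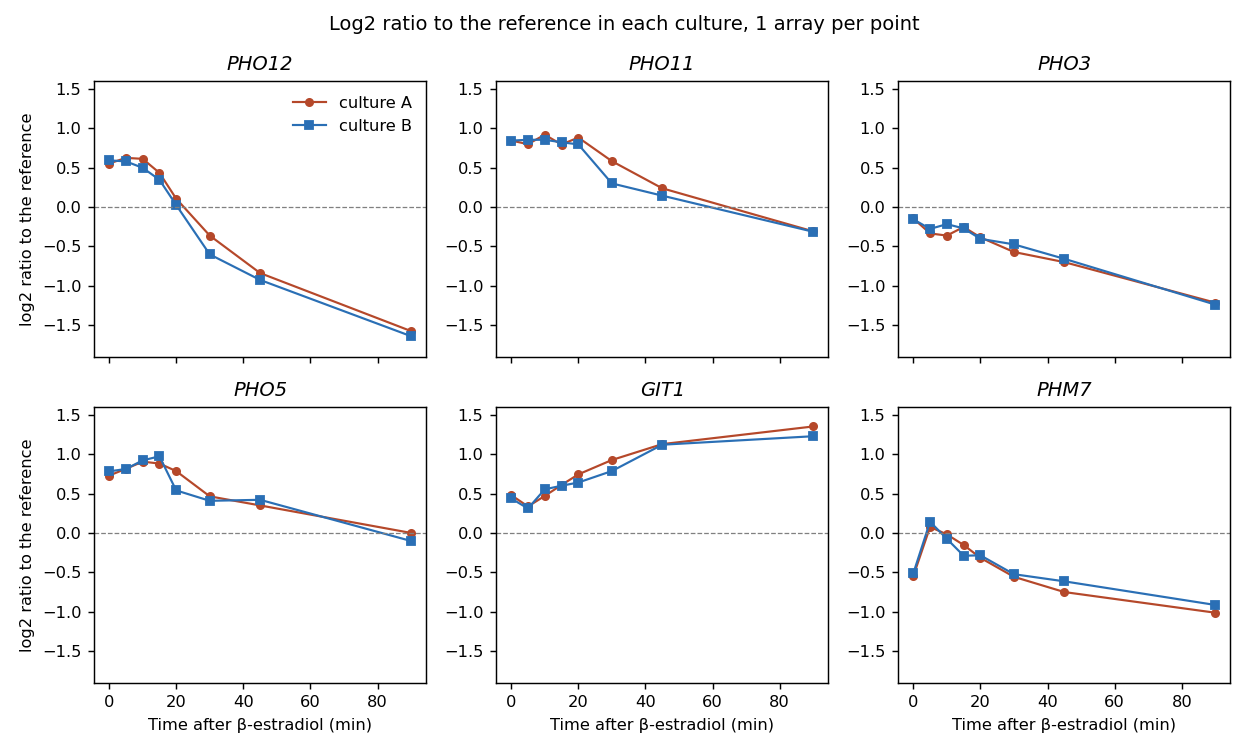
Log2 ratio to the reference of 6 genes against time after β-estradiol in minutes, 1 point per array, for culture A (circles) and culture B (squares). The dashed line marks equal signal in both colours. PHO12 crossed it between 20 and 30 min and ended at -1.57 and -1.64, GIT1 ended at 1.35 and 1.23, and PHM7 had its highest ratios at 5 min (0.08 and 0.14).

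A ratio joins signals of 2 RNA samples, so the colours were also read apart. The processed red signal of PHO12 was 17854 and 19617 at 90 min in cultures A and B, against 67005 and 68279 at 0 min. The red signal of PHO11 was 100608 and 101432 at 90 min, against 142763 and 138998 at 0 min. The red signals of both were thus lower at 90 min in both cultures. The green signal of PHO11, from the reference RNA, was higher at 90 min: 124826 and 125502 in cultures A and B, against 79514 and 77448 at 0 min. For PHO12 the green signal was 53264 and 60846 at 90 min, against 45689 and 45260 at 0 min. The green signal of PHO5 was 94891 and 135508 at 90 min, against 82783 and 78472 at 0 min, while its red signal was 95102 and 126435, against 137299 and 135081. Among the 6046 genes, PHO11 was the only one whose green signal, after quantile normalization between arrays, was higher by at least 0.5 on the log2 scale in both cultures at 90 min. The same limma fit on the green channel, added after these values had been seen, gave changes of 0.56 for PHO11 (adjusted p 0.502), 0.42 for PHO5 (0.992) and 0.39 for PHO12 (0.107), and called 0% of all genes in either direction. The labels name the same reference strain on all arrays, and part of the change in ratio of these 3 genes came from the green channel. Its part in the result beyond these values was not tested.

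With the red channel alone, PHO12 was lower by 1.75 on the log2 scale at 90 min (log2 change -1.75, SE 0.08, adjusted p 9.30e-06 by limma). PHO3 changed by -0.95 (adjusted p 0.0118) and PHO11 by -0.53 (adjusted p 0.0166), both past the threshold but below 2-fold. PHO5 changed by -0.38 (adjusted p 0.0650), which did not pass. The median SE over all genes was 0.13 for the red channel and 0.05 for the ratio. The fall of PHO12 thus held at 2-fold in red signal alone, and the 2-fold size of the PHO11 and PHO3 changes rested on the ratio.

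**Figure D3:**
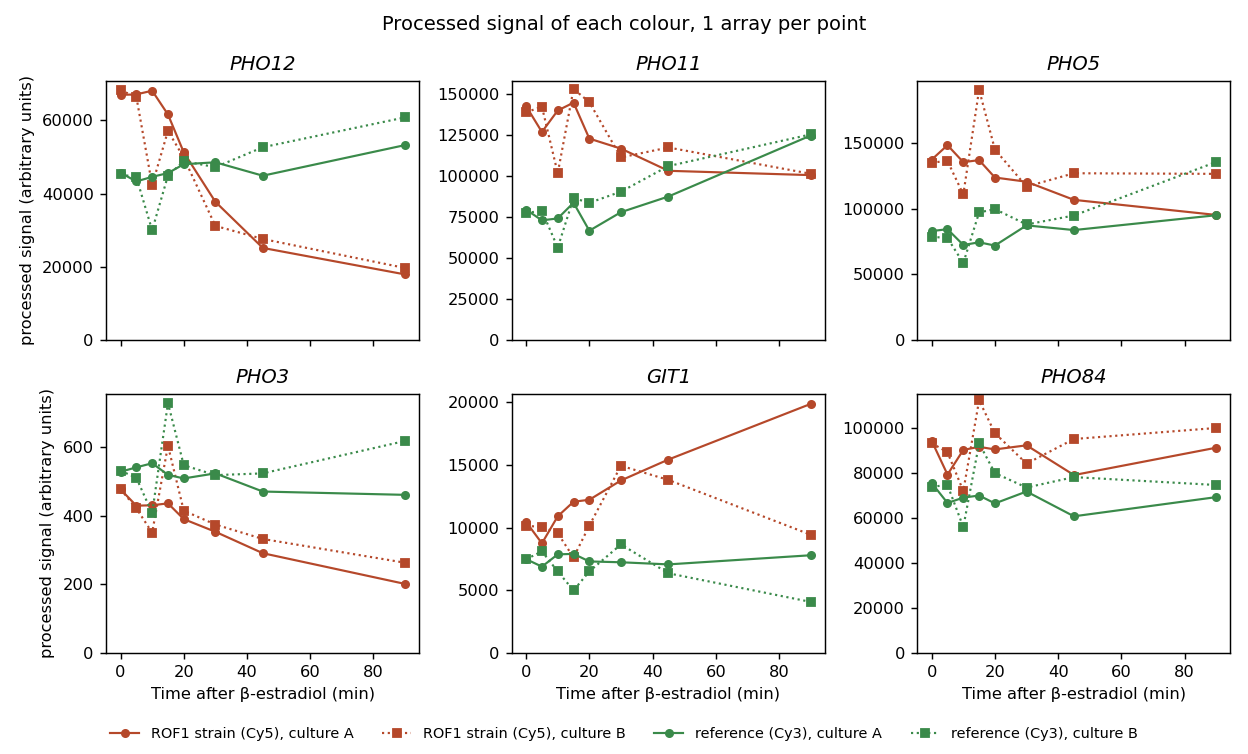
Processed signal in arbitrary units, on axes that start at 0, of the ROF1 strain (red, Cy5) and of the reference (green, Cy3) against time in minutes, 1 point per array, for culture A (solid lines) and culture B (dotted lines). For PHO11 the green signal at 90 min (124826 and 125502) lies above the red (100608 and 101432), and at 0 min it lies below. For GIT1 the red signal at 90 min is 19882 in culture A but 9426 in culture B.

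Genes beside the acid phosphatases on the chromosome were read as well, since they lie close by. IMD2, which follows PHO12 on chromosome VIII and encodes an enzyme of guanine nucleotide synthesis, changed by -1.43 at 90 min (adjusted p 5.47e-05 by limma), though it has close paralogs whose RNA its probe may also read, and YHR214C-E on the other side by -0.13 (adjusted p 0.660). YAR068W, before PHO11 on chromosome I, changed by -0.85 (adjusted p 2.82e-05). TIM12, before PHO3, encodes a mitochondrial import protein and changed by -0.62 (adjusted p 1.39e-05), and PBY1, after PHO5, changed by -0.11 (adjusted p 0.0497). By the adjusted p alone IMD2, YAR068W, TIM12 and PBY1 were thus lower and YHR214C-E was not, against 20% lower over all genes. A part of chromosome position was not tested.

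The other 3 phosphatases did not follow the acid phosphatases together. PHO8, the repressible alkaline phosphatase of the vacuole, was lower at 90 min (-0.31, SE 0.04, adjusted p 3.53e-04 by limma) and at 45 min (-0.16), with midpoints of 42.0 min (culture A) and 50.6 min (culture B). PHM8, which encodes a lysophosphatidic acid phosphatase, was higher at 5, 10, 15, 45 and 90 min, with a change of 0.36 at 90 min (SE 0.03, adjusted p 1.02e-04). HOR2, which encodes a glycerol phosphatase of glycerol synthesis, was higher at every time from 10 min on and by 0.52 at 90 min (SE 0.03, adjusted p 2.60e-06). Of the 7 phosphatases, 5 were thus lower and 2 higher at 90 min, with a median change of -0.81, against 20% lower and 20.7% higher over all genes. In the red channel alone PHO8 (-0.46, adjusted p 0.0770), PHM8 (0.44, adjusted p 0.112) and HOR2 (0.35, adjusted p 0.201) had the same direction but did not pass the threshold.

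The sensing and control genes moved little. The activator gene PHO4 had ratios of 0.02, 0.21, 0.12, 0.27, 0.23, 0.44, 0.35 and 0.46 over the 8 times in culture A. Culture B gave 0.36, 0.12, 0.19, -0.05, 0.22, 0.19, 0.28 and 0.39. The cultures differed by 0.34 at 0 min, the processed signals were dim (68.2 to 162 in red, against a floor of 50), and the change at 90 min of 0.23 (SE 0.13) did not pass the threshold (adjusted p 0.204 by limma, 95% interval -0.07 to 0.54). PHO81, the gene of the kinase inhibitor, had ratios of 0.21, 0.17, 0.19, 0.15, 0.19, 0.22, 0.14 and 0.09 in culture A, and of 0.18, 0.09, 0.17, 0.23, 0.18, 0.23, 0.16 and 0.11 in culture B. Its change at 90 min was -0.10 (SE 0.03, adjusted p 0.0358), a call that was lost when any 1 of the 4 arrays of 0 and 90 min was left out (highest adjusted p 0.172). PHO85, the kinase gene, was higher by 0.27 at 90 min (SE 0.04, adjusted p 9.47e-04), in both cultures (0.34 and 0.20). Its cyclin gene PHO80 changed by -0.09 (95% interval -0.21 to 0.04), the partner gene PHO2 by 0.02 (-0.14 to 0.19) and SPL2, which encodes a small protein that holds back low-affinity phosphate uptake, by 0.09 (-0.02 to 0.19), none past the threshold. In the red channel alone PHO85 changed by 0.20 and did not pass (adjusted p 0.408). In this group 1 of 6 genes was higher and 1 was lower at 90 min, close to the 20.7% and 20% of all genes.

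Among the transport genes, PHO84, which encodes the high-affinity proton and phosphate symporter, stayed near its starting ratio. In culture A it had ratios of 0.32, 0.24, 0.39, 0.39, 0.45, 0.37, 0.38 and 0.41 over the 8 times. Those of culture B were 0.34, 0.26, 0.36, 0.27, 0.29, 0.20, 0.29 and 0.38. The arrays of later times lay on both sides of those of 0 min, and the change at 90 min was 0.07 (SE 0.05, adjusted p 0.331 by limma, 95% interval -0.05 to 0.19). PHO86, whose product helps Pho84 leave the endoplasmic reticulum, was higher at 90 min by 0.17 (adjusted p 0.0125). The genes of the low-affinity transporters, PHO90 (-0.20, adjusted p 0.00232) and PHO87 (-0.13, adjusted p 0.0327), were lower. PHO90 had its lowest ratios at 10 min, -0.43 and -0.52 in cultures A and B, with a change of -0.36 (adjusted p 2.04e-04), and was lower by the threshold at 5, 10, 15, 45 and 90 min. PHO89, the sodium and phosphate cotransporter gene, was lower by 0.16 to 0.21 at each time from 5 to 45 min (changes of -0.16 to -0.21), and its change at 90 min was -0.06 (adjusted p 0.324). PHO88 (-0.02) and the vacuolar transporter gene PHO91 (-0.07) did not pass at 90 min. Of the 7 transport genes 1 was higher and 2 were lower at 90 min, with sizes of at most 0.20, against 20.7% higher and 20% lower over all genes. All 3 calls were lost in the red channel alone, where the changes were -0.069 for PHO90 (adjusted p 0.868), -0.065 for PHO87 (0.917) and 0.051 for PHO86 (0.982). When single arrays were left out, PHO86 lost its call in 2 of 4 fits and PHO87 in 3 of 4.

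The VTC genes encode the complex that makes polyphosphate at the vacuole, and PPN1, PPX1 and DDP1 encode enzymes that break it down. At 90 min VTC3 was higher by 0.18 (SE 0.03, adjusted p 0.00398 by limma) and VTC1 by 0.17 (SE 0.05, adjusted p 0.0257). VTC1 lost its call in each of the 4 fits without 1 array, and both changes had the opposite sign with the red channel alone (-0.07 for VTC1 and -0.04 for VTC3, neither past the threshold). VTC2 (0.06) and VTC4 (-0.03), whose product is the catalytic subunit, did not pass. PPN1, for the vacuolar endopolyphosphatase, was higher by 0.23 (SE 0.02, adjusted p 1.21e-04), while PPX1 (0.05) and DDP1 (-0.02) did not pass. PPN1 did not pass in the red channel alone either (0.32, adjusted p 0.290). Of these 7 genes 3 were higher and 0 lower, against 20.7% and 20% of all genes, and no change was larger than 0.23. VTC4 was the only one of the 32 with more than 1 probe, and its other probe had a change of 0.05 at 90 min.

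GIT1, which encodes the plasma membrane carrier of glycerophosphoinositol, a phosphate source outside the cell, had the largest rise of the set in ratio. Its values are given after they were seen. In culture A the ratio was 0.48, 0.34, 0.47, 0.61, 0.75, 0.93, 1.13 and 1.35 over the 8 times. Those of culture B were 0.44, 0.31, 0.56, 0.60, 0.64, 0.79, 1.12 and 1.23. Both cultures were below their start at 5 min and above it from 15 min on. At 20, 30 and 45 min the change was 0.23, 0.40 and 0.66, and by 90 min it was 0.83 (SE 0.05, adjusted p 8.46e-06 by limma), 1.78-fold higher, and the midpoints were 29.5 and 32.1 min. The colours moved differently in the 2 cultures. In culture A the red signal was 19882 at 90 min, against 10447 at 0 min, with green signals of 7784 and 7473 at the same times. In culture B the red signal was 9426 at 90 min, against 10131 at 0 min, with green signals of 4056 and 7464. In the red channel alone the change of GIT1 was 0.50 (SE 0.34, adjusted p 0.494), with 1.07 and -0.08 in cultures A and B. GDE1, which encodes an enzyme that cleaves glycerophosphocholine inside the cell, changed by -0.05 at 90 min (95% interval -0.16 to 0.06).

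The last 3 genes are known to respond to phosphate or sit beside genes that do. PHM7, which encodes a membrane protein of unclear function, moved both ways and was chosen for description after its values were seen. Its ratio in culture A was -0.55, 0.08, -0.02, -0.15, -0.31, -0.56, -0.75 and -1.01 over the 8 times. In culture B it was -0.51, 0.14, -0.07, -0.29, -0.28, -0.52, -0.61 and -0.91. Both cultures were highest at 5 min and lowest at 90 min. PHM7 was higher by 0.64 at 5 min (SE 0.06, adjusted p 1.92e-04 by limma), by 0.49, 0.31 and 0.23 at 10, 15 and 20 min, and lower at 90 min (-0.43, SE 0.06, adjusted p 6.50e-04). The direct test of 90 min against 5 min gave -1.07 (adjusted p 3.59e-06), one of 3 changes of 2-fold or more in that comparison, with PHO12 (-2.21) and PHO11 (-1.14), against a background of 1.36% lower. PHM6 was higher by 0.20 at 90 min (adjusted p 0.00251), and its change of 0.31 in the red channel alone did not pass (adjusted p 0.254). CTF19, a kinetochore gene next to VTC3, was lower at 5 min (-0.24, adjusted p 0.0131) and changed by 0.07 at 90 min (adjusted p 0.339).

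**Figure D4:**
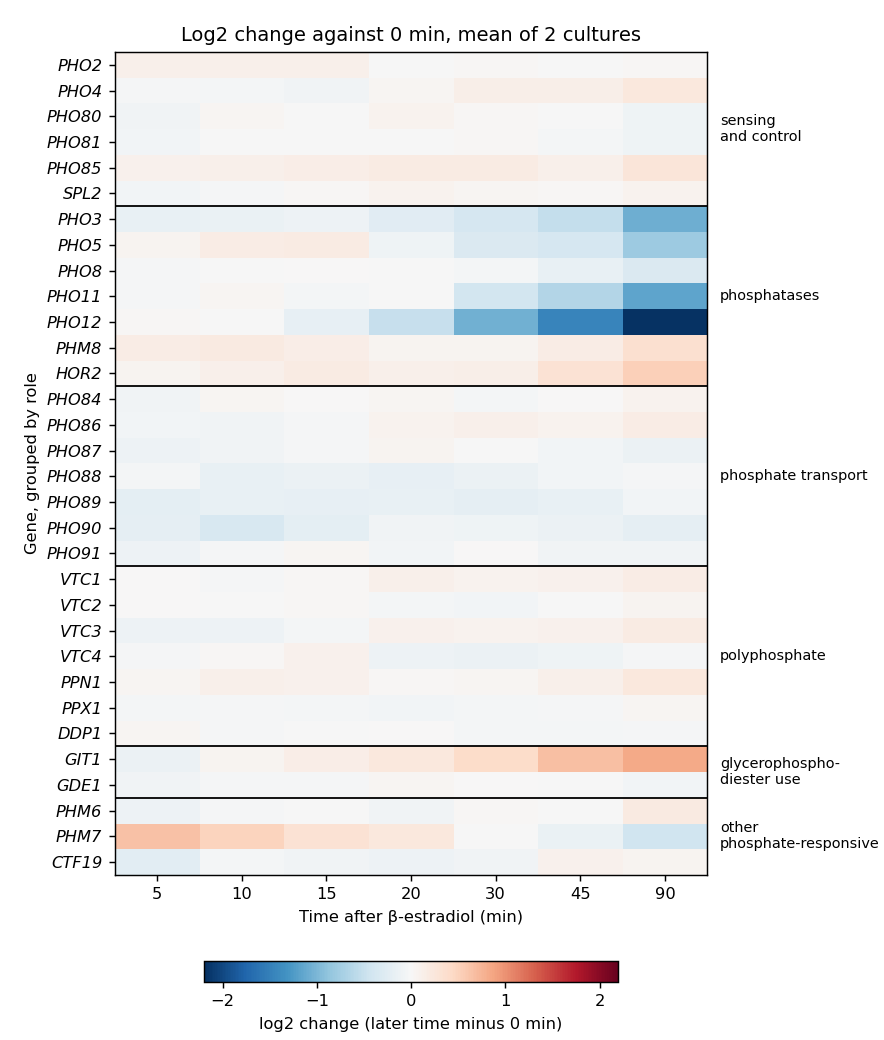
Log2 change against 0 min (later time minus 0 min, mean of 2 cultures) of the 32 genes at the 7 later times, in rows grouped by role and columns by time in minutes. Blue marks a lower and red a higher value than at 0 min. The blue cells gather in PHO12 (-2.18 at 90 min), PHO11, PHO3 and PHO5, GIT1 reddens from 20 min on, and PHM7 is red at 5 min (0.64) and blue at 90 min (-0.43).

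The earlier times were counted in the same way. At 5 min 2 of the 32 genes were higher, PHM7 and PHM8, and 4 were lower, PHO3, PHO89, PHO90 and CTF19, against backgrounds of 10.1% higher and 9.54% lower. At 10 min 4 were higher and 5 lower (backgrounds 11.6% and 12.9%), and at 15 min 5 were higher and 3 lower (9.01% and 9.84%). At 20 min 4 were higher and 4 lower (7.96% and 7.56%), at 30 min 3 and 5 (5.52% and 5.94%), and at 45 min 4 and 7 (8.78% and 7.96%). Changes of 2-fold or more before 90 min were limited to PHO12, lower at 30 and 45 min. None of the 32 genes was higher by 2-fold at any time, against backgrounds of 0.165%, 0.0992%, 0.0331%, 0.0331%, 0.0662% and 0.132% from 5 to 45 min, and none was lower by 2-fold up to 20 min, where the background was 0% through 15 min and 0.0827% at 20 min. The share of phosphate genes that were lower was above the background most clearly at 45 min. Over the whole course, 20 of the 32 genes changed by limma's F test at an adjusted p under 0.05, against a background of 50.6%. With the red channel alone 2 of the 32 changed, against 5.14% of all genes. In the direct comparison of 90 min with 5 min, 13 genes were higher and 6 lower, against 24.3% and 22.1% of all genes. In the mean of the 7 later times, 6 were higher and 6 were lower, against 12% and 12.4%, and 0 changed by 2-fold (backgrounds 0.0331% higher and 0.116% lower).

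The changes of the 32 genes in culture A and in culture B were compared as a description, since both cultures share the platform and the reference. For the times from 5 to 90 min, in order, Pearson's r across the 32 genes was 0.82, 0.75, 0.41, 0.75, 0.84, 0.95 and 0.98. The highest values of r came at the times when the acid phosphatases and GIT1 had moved furthest. Since r rises with the range of the changes, it does not measure how close the cultures were. In bulk RNA, fewer cells that express a gene and less of its RNA per cell cannot be told apart, and this holds for each change above.

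At 0 min, before the inducer was added, many phosphate genes already differed from the reference. The ratio was above 0 for 17 of the 32 genes and below 0 for 6 at an adjusted p under 0.05, against backgrounds of 25.9% and 23.8%, and 0 differed by 2-fold (backgrounds 0.281% higher and 0.711% lower). The median ratio of the 32 genes was 0.11, against 0.00 over all genes. The acid phosphatase genes PHO11 (0.84), PHO5 (0.76) and PHO12 (0.57) had the highest ratios, each with an adjusted p of at most 4.66e-05 by limma, and in each the arrays of cultures A and B differed by less than 0.06. They were followed by GIT1 (0.46), VTC1 (0.44), GDE1 (0.38), CTF19 (0.35), PHO84 (0.33) and PHM6 (0.31). Of the 7 phosphatases 6 were above the reference, and PHO3 was below it (-0.15, adjusted p 0.00492). Not all of these calls held when 1 of the 2 arrays of 0 min was left out. Above the reference, those of HOR2, PHO8, PHO80, SPL2, PHO91 and DDP1 were lost in at least 1 fit. Below it, those of PHO3, PHO85, PHO90 and VTC2 were. The ratio then ranged from 0.067 to 0.16 for HOR2, from 0.046 to 0.18 for PHO80 and from -0.11 to -0.032 for VTC2. PHM7 had the lowest ratio (-0.53, adjusted p 1.44e-05). PHO4 (0.19) did not pass the threshold (adjusted p 0.115), with 0.02 and 0.36 in cultures A and B.

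PHO11, PHO5 and PHO12, with the highest ratios at 0 min, were among the 4 genes with the largest falls at 90 min, and the fourth, PHO3, started below the reference. The arrays of 0 min enter both the starting ratio and the fall, so these are not independent. The growth conditions of the reference RNA are not stated in the labels, and the dyes were never swapped, so strain, culture and dye cannot be told apart in a ratio at 0 min. The 60 genes with the highest mean log2 signal of both colours, which included PHO5, PHO11, PHO84 and VTC1, had a median ratio of 0.17 at 0 min. Under normexp with loess the ratios at 0 min were 0.92 for PHO11, 0.82 for PHO5, 0.51 for VTC1 and 0.38 for PHO84. The part of probe brightness in these 4 ratios was not tested further.

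**Figure D5:**
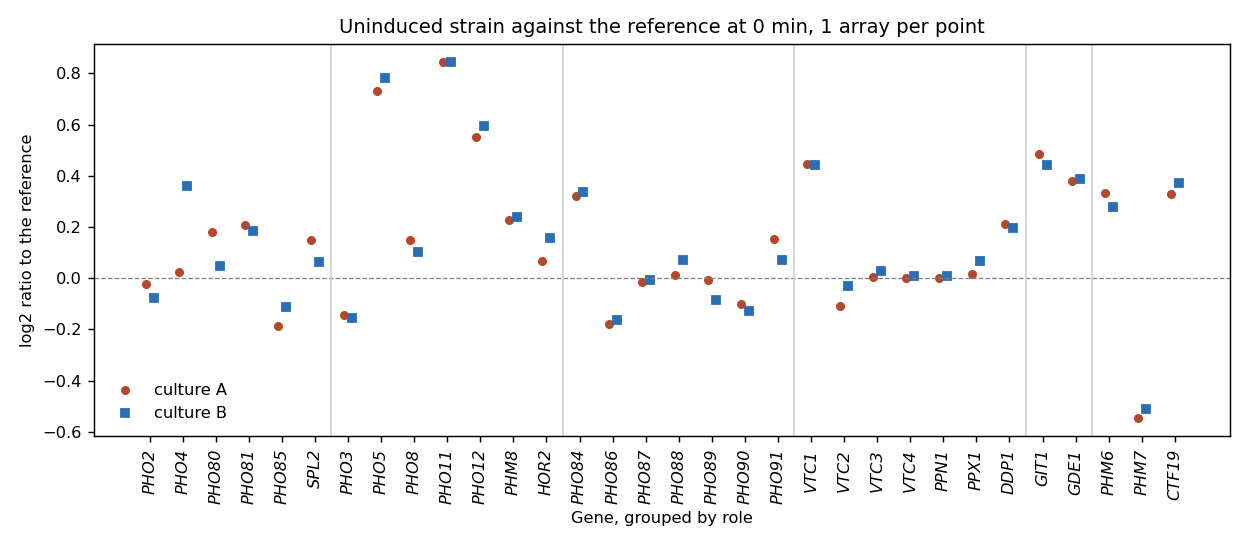
Log2 ratio of the ROF1 strain over the reference at 0 min for the 32 genes, grouped by role along the axis, with 1 point per array for culture A (circles) and culture B (squares). The dashed line marks equal signal. PHO11 (0.84), PHO5 (0.76) and PHO12 (0.57) are the highest means, PHM7 (-0.53) is the lowest, and PHO4 shows the widest gap between cultures.

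Other genes tied to phosphate were counted from 3 lists, which were chosen with earlier results of these data known. Of 9 genes for SPX-domain proteins and inositol pyrophosphates, the signalling molecules that SPX domains bind, 3 were higher (KCS1, SYG1 and VTC5) and 2 lower (ARG82 and PPN2) at 90 min, all by less than 0.28 in size. Of 9 genes for cyclins of Pho85, 2 were higher, PCL1 (0.41) and PCL7 (0.36), and 0 lower. These genes were named after their values were seen. Of 7 further phosphatase and phosphate genes, 2 were higher and 1 was lower; PHO92 among them lay under the floor in both colours on all arrays, so its ratio was 0 throughout and it could not be called. The lower gene was PHO23, a subunit of the Rpd3L histone deacetylase first found by its effect on PHO5, with changes of 0.17, -0.34 and -0.69 at 5, 15 and 30 min and of -1.05 by 90 min (SE 0.03, adjusted p 9.77e-08 by limma). PHO23 had a ratio of 0.04 at 0 min and ended at -1.01 and -1.02 in cultures A and B, the only gene of these lists with a 2-fold change. GPP1, the close paralog of HOR2, was higher by 0.50 at 90 min (SE 0.10, adjusted p 0.00546), and a probe of either gene may read RNA of both. All shares here stand beside the backgrounds of 20.7% higher and 20% lower at 90 min. These calls are of the ratio, and no red-channel test is given for these lists. In culture B the red signal of PCL7 was 1319 at 90 min, against 1546 at 0 min, with green signals of 1133 and 1700. Red signal was lower too for KCS1 in culture B (5048 against 5515) and for VTC5 in culture A (4788 against 4902). In the other culture PCL7, KCS1 and VTC5 were higher in red, as were PCL1, SYG1, PHO13 and GPP1 in both cultures.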

How the data were processed

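The authors hybridised each sample on a two-colour Agilent array, scanned it and extracted spots with Feature Extraction 12.0.1.1. Per the file headers, background had been subtracted from the deposited intensities and the dyes balanced on each array, and the array design refers to the sacCer2 build. A deposited table held log2 ratios, made after both intensities were floored at 50, and 0 of its 99697 probe values differed by over 1e-04 from ratios recomputed here.

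Here, spots marked as outliers were left out (3 of 1056 spots of the 32 genes), log2 ratios of floored intensities were averaged over the 2 spots of a probe, and genes with red signal well above background on at least 2 of 16 arrays were tested (6046). Of genes with several probes, the brightest was taken. The genes tested include 264 with no residual spread, which count in every background share. Signals well above background in both colours on all 16 arrays were reached by 5589 genes, among them all 32. limma 3.58.1 (R 4.3.3) was fitted to the 16 arrays with terms for time and for culture (the block), leaving 7 residual degrees of freedom (prior 0.89). Ratios at 0 min were tested against 0 without the block. The pairing comes from the design, since a letter marks 1 culture followed over time. The correlation of culture deviations between times had a median of 0.15 (-0.05 to 0.40). Nothing in the labels says whether A and B came from separate colonies, and each culture was on its own slide. The block takes out any constant difference between the 2 cultures. The p-values of changes thus rest on the spread that remains between cultures at each time, pooled over all times. Only 2 arrays per time limit the precision.

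Changes were called at an adjusted p under 0.05 and 2-fold. Values on every array are given for genes called at any time or at 0 min, for PHO4, PHO81 and PHO84, and for genes said to have been chosen after their values were seen. The members and lists were chosen with earlier results of these data known. Alternatives were normexp with loess, the deposited table, other floors and filters, median centring, the red channel alone, the fit with or without the block, an intensity-dependent prior, other minimum changes, and arrays or cultures left out; the green channel alone was added after values were seen. Names and neighbours were checked in a RefSeq table of R64 (32 of 32 matched; 5720 of 6225 genes). Figures were drawn with matplotlib 3.10.9.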

Additional observations from a re-analysis of the deposited data

How the results depend on the processing

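The number of genes lower by 2-fold at 90 min was 3 under the deposited table, other floors and filters, median centring, no block and an intensity-dependent prior, and in each of the 4 fits without 1 array of 0 or 90 min. It was 2 under normexp with loess, where the PHO3 change at 90 min was -0.88 and still past the adjusted p. With the red channel alone 1 gene was lower by 2-fold at 90 min, 0 at 30 min, and 2 changed over time (5.14% of all genes). The share of all genes changed by 2-fold was counted in the main fit alone (0.992% lower at 90 min and 0.265% at 30 min). The 2-fold counts under other settings thus stand without a background of their own. At 30 min the count of lower genes was between 0 and 1 when single arrays were left out, and 0 in culture A alone, since the PHO12 change lay close to 2-fold. The number that changed over time was 19 without the culture block, against 20 with it, and 16 to 20 when single arrays were left out; with the block, the PHO91 ratio at 0 min against the reference no longer passed (adjusted p 0.0585 by limma), and the block moved no count of 2-fold changes.

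Without a minimum change, the numbers lower at 5, 10, 15, 20, 30, 45 and 90 min were 4, 5, 3, 4, 5, 7 and 9, and the numbers higher were 2, 4, 5, 4, 3, 4 and 9; 6 were lower and 6 higher in the mean of later times, and 6 and 17 at 0 min. With a minimum of 0.5, 1 was higher at 5 min (1.32% of all genes), 1 lower at 20 min (0.48%) and at 30 min (0.877%), 3 lower (1.42%) and 1 higher (0.612%) at 45 min, 4 lower (3.08%) and 2 higher (2.63%) at 90 min, 1 lower in the mean of later times (0.612%), and 1 lower (1.72%) and 3 higher (1.41%) at 0 min.

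Signs turned only in changes of 0.20 or less. With the red channel alone the changes at 90 min were -0.042 for PHO2, -0.010 for PHO84, 0.032 for PHO89, 0.036 for PHO91, -0.069 for VTC1, -0.041 for VTC3, 0.12 for VTC4, 0.11 for DDP1 and 0.022 for GDE1. Leaving out single arrays turned PHO2 (-0.031 to 0.074), PHO88 (-0.045 to 0.0095), GDE1 (-0.11 to 0.0048) and CTF19 (-0.014 to 0.15) at 90 min. The ratio of PPN1 at 0 min was -0.029 under normexp with loess. The cause was not tested.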
